A study of Mus musculus with 4 samples.

Results

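The sections described here are those in which transcripts of vascular smooth muscle were densest along the mouse tibialis anterior, the shin muscle that lifts the foot. They were chosen by measured values. Each kept section was scored by its summed Acta2, Myh11 and Tagln level in CPM, that is transcripts per 1000000 transcripts of genes not named mt-, and in each muscle the 25% of sections with the highest score were set against the rest. This took 43 of 171 kept sections, 9 of 37, 11 of 45, 12 of 46 and 11 of 43 in muscles 1 to 4, and left 128 others. The 3 scoring genes chose the sections, so their values are given as a description and support nothing.

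The data came from 4 tibialis anterior muscles of 1 group, cut into frozen sections along 1 axis and sequenced section by section (TOMO-seq), with transcripts counted at their 3' ends by CEL-Seq2. The labels give no strain, age, sex, genotype or treatment, and do not say whether the muscles came from separate animals, so the p-values below reflect how these particular sums vary, a spread that may be technical. The comparison asks what else is denser in a section where smooth muscle transcripts are dense. Counts were summed over the high and over the other sections of each muscle, which gave 8 sums of 1522321 to 6745891 transcripts, and were fitted with muscle as a block in edgeR (adjusted p under 0.05 taken as called, log2 differences as high minus other with their SE).

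Smooth muscle cells wrap arteries and arterioles, and thinly also veins and larger lymphatic vessels, and contract through smooth muscle myosin, alpha actin, calponin and transgelin when myosin light chain kinase is switched on by calcium. In limb muscle the feeding artery usually enters beside the nerve and the vein as a neurovascular bundle, and then branches into arterioles that run between the fascicles. A cross-section through such a bundle holds vessel wall, Schwann cells, perineurium and blood as well as muscle fibres. In whole sections such as these, more cells of a type and more RNA per cell cannot be told apart.

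Each muscle had 1 section that stood far above the others, near the same place. The highest score was 1386, 1324, 1164 and 1665 CPM in muscles 1 to 4, which was 3.37, 3.53, 3.14 and 4.14 times the median of the muscle, and the next highest section had 818, 705, 772 and 1034. These 4 peak sections were number 6, 11, 12 and 8 in barcode order, at relative positions of 0.15, 0.227, 0.239 and 0.167 between the first kept section (0) and the last (1). The labels do not say which end of the muscle was cut first, so the first end means only the low barcode numbers. The median score was 634, 475, 586 and 644 in the high and 358, 348, 346 and 371 in the other sections. At the threshold the groups met: the lowest high section scored 509, 449, 451 and 589 and the highest other section 487, 449, 450 and 588, so the chosen 25% has no natural edge.

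**Figure D1:**
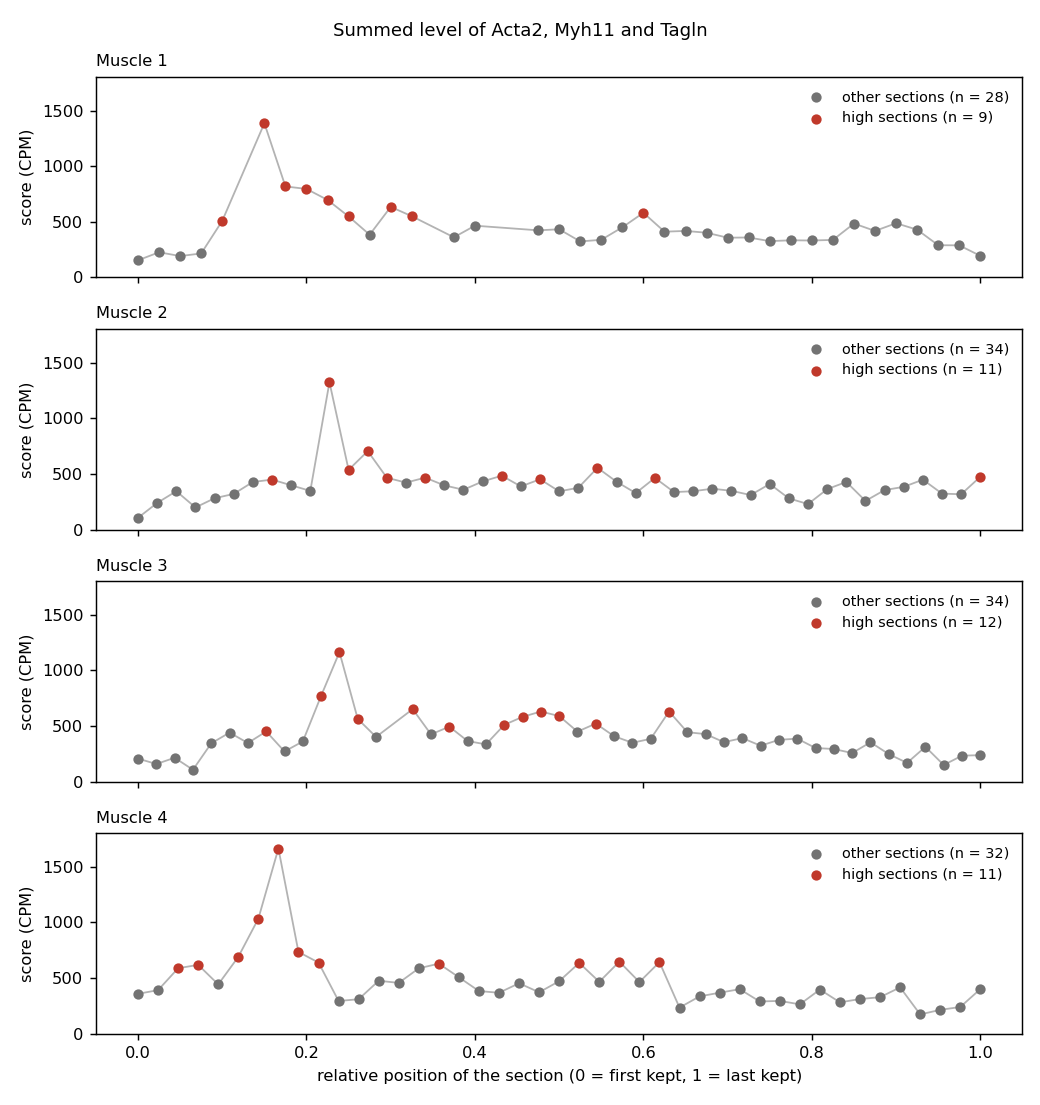
Summed Acta2, Myh11 and Tagln in CPM (vertical axis) in each kept section by relative position (horizontal axis, from barcode order), 1 panel per muscle; red points are the high sections and grey points the others. Each muscle has its highest section, of 1386, 1324, 1164 and 1665 CPM, between positions 0.15 and 0.239; the next highest reach 818, 705, 772 and 1034, and the lowest high sections touch the highest others.

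High sections were concentrated in the first part of the muscle. Of the 43, 34 (79.1%) lay at positions up to 0.5, where 85 of 171 kept sections (49.7%) lay. In 5 zones of equal length, from first to last, 11 of 35, 17 of 32, 10 of 33, 4 of 34 and 1 of 37 kept sections were high. They did not form 1 block: there were 3, 8, 7 and 6 separate runs in muscles 1 to 4, with a longest run of 6, 4, 4 and 5 sections. High sections were also somewhat deeper, with a median of 191926, 138402, 205891 and 198550 transcripts not named mt- against 185740, 129505, 165358 and 149933 in the others, and single kept sections ranged from 28380 to 575524. With every section thinned to the shallowest of its muscle, 13 genes were called higher and 11 lower.

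The scoring genes moved together unevenly. Across sections of 1 muscle, Pearson's r between Acta2 and Myh11 was 0.93, 0.77, 0.75 and 0.76 (n = 37, 45, 46 and 43), and between Myh11 and Tagln 0.40, 0.25, 0.50 and 0.73; the points share a library and its depth, and the values are a description. Acta2 made up 66.98% and 68.6% of the score in the high sections of muscles 1 and 2, and 45.7% and 38.5% in muscles 3 and 4. Those pairs of muscles also carried different sets of section barcodes. Tagln, an actin-binding protein of smooth muscle, stood at 79.9, 84.9, 217 and 335 CPM in the high sections of muscles 1 to 4 and at 54.7, 48.4, 120 and 167 in the others, so its level in the other sections of muscles 3 and 4 exceeded that in the high sections of muscles 1 and 2.

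Outside the score, some genes of smooth muscle, nerve and lymph and all those listed for erythrocytes were higher. Cnn1, Myl9, Mylk and Flna of the contractile apparatus, the elastic fibre gene Eln, 3 genes of Schwann cells and myelin, the lymphatic chemokine Ccl21a and all 5 erythrocyte genes passed the test as higher in the high sections, and tendon genes were lower. In all, 55 genes were higher and 42 lower of 11079 tested (0.496% and 0.379%), the scoring genes left out, and 907 had an unadjusted p under 0.05. The shares of 0.496% and 0.379% are the background for the counts of list members called against all other sections. The median log2 difference over all genes tested was -0.01. Without the peak section of each muscle, a choice made after seeing the data, 49 genes were higher and 38 lower (0.448% and 0.348%, 0.796% in all), and 77 of the 97 first called were called again. The calls depended on the tool: of 53 genes followed over all settings, DESeq2 called 17 and not the other 36. It called Ccl21a, the 4 globins, Actc1, Chad, Prg4 and Fmod. It called no gene of the contractile, elastic fibre or Schwann cell lists reported here. Its adjusted p was 0.38 for Cnn1, 0.44 for Myl9, 0.15 for Mylk, 0.39 for Flna and 0.55 for Eln. For Mbp it was 0.074, for Sox10 0.84 and for Pmp22 0.9996. The log2 differences that DESeq2 gave these genes were close to those of edgeR (0.40 to 1.55).

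Among genes of smooth muscle contraction that were not scored, 4 of 21 tested were higher and none lower (background 0.496% and 0.379%), and the median log2 difference of the 21 was 0.12. Cnn1, calponin, which binds actin and holds back myosin, had 5.89, 8.54, 3.73 and 6.66 CPM in the high sections of muscles 1 to 4 and 3.24, 2.13, 1.63 and 1.13 in the others. Each high sum was above each other sum. Cnn1 rested on few transcripts, 11, 13, 11 and 15 in the high sections, and the difference was 1.49 ± 0.31 (SE; edgeR adjusted p = 0.00075). Without the 4 peak sections it was 1.00 and no longer called (edgeR adjusted p = 0.19), and without muscle 4 it was 1.26 (adjusted p = 0.055).

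Myl9, the regulatory light chain that is phosphorylated to start contraction, had 41.8, 23.7, 18.3 and 27.6 CPM in the high and 21.5, 19.7, 11.3 and 14.1 in the other sections. It was higher in 4 of 4 muscles, by least in muscle 2, and the groups overlapped (0.69 ± 0.13, edgeR adjusted p = 0.0002). Without muscle 1 the difference was 0.56 and not called (edgeR adjusted p = 0.093). Mylk, the kinase that phosphorylates this light chain, had 66, 46.7, 58.5 and 55.6 CPM in the high and 38.1, 30.001, 46.9 and 33.5 in the other sections. The groups overlapped only through muscle 3, whose other sections stood level with the high sections of muscle 2 (0.52 ± 0.09, edgeR adjusted p = 4.7e-05). Mylk stayed called by edgeR without each muscle in turn and was not called by DESeq2 (0.53, adjusted p = 0.15).

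Flna, filamin A, which ties actin filaments to the membrane in many cell types, had 65.9, 73.7, 78.4 and 77.4 CPM in the high and 55.4, 55.4, 51.5 and 49.6 in the other sections. Every high sum was above every other sum (0.41 ± 0.08, edgeR adjusted p = 0.000395; 0.37 and adjusted p = 0.098 without muscle 3). Dstn, the actin-depolymerising protein destrin, was chosen for mention after its values were seen. It had 60.6, 38.1, 39.8 and 54.3 CPM in the high and 34.5, 25.7, 29.97 and 35.4 in the other sections, again with no overlap (0.53 ± 0.10, edgeR adjusted p = 0.000134; 0.42 and adjusted p = 0.069 without muscle 1). Of all 11079 genes, 101 (0.912%) had all 4 high sums above all 4 other sums and 22 (0.199%) all below; 782 (7.06%) were higher and 859 (7.75%) lower in 4 of 4 muscles.

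Of the 21 contractile genes tested, 13 had a positive difference and the rest did not, and the lowest difference was -0.77. Of the uncalled genes named next all but Des were positive, so they do not stand for the rest of the list. Those not called included genes shared with the fibres and genes of low level. Tpm2 and Des, a tropomyosin and the intermediate filament desmin, are also made by skeletal fibres and had differences of 0.03 ± 0.05 and -0.03 ± 0.05. Ppp1r14a, an inhibitor of myosin phosphatase, had 0.74 ± 0.21 (edgeR adjusted p = 0.052) and Rbpms2, an RNA-binding protein of smooth muscle, 1.04 ± 0.31 (adjusted p = 0.083), both with a positive difference in 4 of 4 muscles. The LIM protein gene Csrp1 and Cald1, caldesmon, had 0.32 ± 0.12 and 0.21 ± 0.11 and were not called.

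Receptors, channels and regulators of the same cells showed few calls. Of 17 channel, receptor and signalling genes tested, Itpr1, a calcium release channel of the endoplasmic reticulum, was lower and none was higher. Itpr1 had 26.8, 38.8, 46.9 and 37.8 CPM in the high and 31.2, 34.3, 68.3 and 50.3 in the other sections, lower in 3 of 4 muscles (-0.41 ± 0.10, edgeR adjusted p = 0.0114). It lost the call without muscle 3 (-0.26, adjusted p = 0.78) and without muscle 4 (-0.37, adjusted p = 0.13). Pln, phospholamban, had 0.94 ± 0.36 and the angiotensin receptor Agtr1a 0.65 ± 0.34, neither called. None of 8 transcription regulators tested was called by edgeR or DESeq2, and none had an unadjusted p under 0.05; Srf, the factor that binds CArG boxes, had -0.08 ± 0.10 and the Notch receptor Notch3 -0.02 ± 0.11. Myocd, the smooth muscle partner of Srf, was too low to be tested.

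The promoters of the contractile genes are shown because Srf binds the CArG box, CC and GG around a run of only A or T, 10 bases in all, in many genes of contractile cells. The box was searched in RefSeq promoter windows of 300 bases (GRCm38.p6, 250 before to 50 after the start); it reads the same kind of box on both strands. Of 32851 windows, 535 (1.63%) held it, as did 2 of the 40 windows found for the 55 genes called higher, Myl9 and Actc1. Among 25 smooth muscle genes, the scoring genes included, 20 had a window and 1, Myl9, held the box. The windows of Myl9 (chr2:156775214-156775513, plus strand, box in capitals, first base 161 before the start), Actc1 (chr2:114052826-114053125, minus strand, box in capitals, first base 47 before the start) and Cnn1 (chr9:22099003-22099302, plus strand, no box) are printed from 5' to 3'. A match is a description of these letters and not a binding site.
Myl9: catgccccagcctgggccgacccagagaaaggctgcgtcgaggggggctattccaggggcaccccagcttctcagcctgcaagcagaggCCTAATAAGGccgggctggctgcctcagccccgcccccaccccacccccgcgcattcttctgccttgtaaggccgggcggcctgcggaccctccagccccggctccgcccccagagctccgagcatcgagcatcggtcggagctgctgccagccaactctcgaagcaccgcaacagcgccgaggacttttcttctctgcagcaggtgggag
Actc1: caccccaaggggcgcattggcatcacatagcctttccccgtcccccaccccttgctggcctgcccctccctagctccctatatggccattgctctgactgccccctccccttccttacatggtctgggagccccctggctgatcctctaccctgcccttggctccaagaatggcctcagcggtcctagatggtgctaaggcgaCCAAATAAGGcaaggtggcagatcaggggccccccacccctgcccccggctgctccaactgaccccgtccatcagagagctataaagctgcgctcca
Cnn1: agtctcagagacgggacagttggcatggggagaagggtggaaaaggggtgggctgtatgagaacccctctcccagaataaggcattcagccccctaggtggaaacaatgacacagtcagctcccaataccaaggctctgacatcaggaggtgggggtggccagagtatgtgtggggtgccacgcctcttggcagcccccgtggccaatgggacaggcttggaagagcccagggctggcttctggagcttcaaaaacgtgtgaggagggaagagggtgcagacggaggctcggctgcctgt

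**Figure D2:**
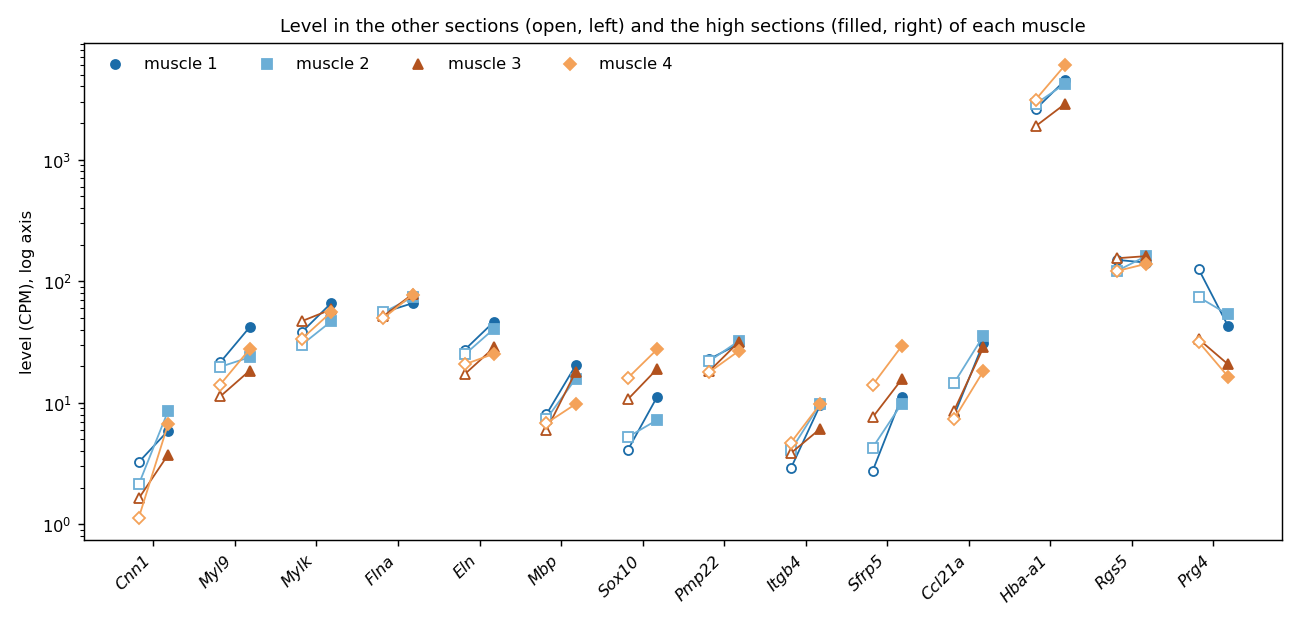
Level in CPM (log axis) for 14 genes in the other sections (open symbols, left) and the high sections (filled symbols, right), 1 symbol and colour per muscle and no error bars, since each point is 1 sum. The lines rise in all 4 muscles for Cnn1, Mbp, Itgb4 and Ccl21a, are nearly level for the pericyte gene Rgs5 and fall for the tendon gene Prg4.

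The vessel wall around the muscle cells showed 1 call. Eln, elastin, which gives arteries their recoil, had 46.6, 40.8, 28.5 and 25.3 CPM in the high and 27.3, 24.97, 17.2 and 20.7 in the other sections. It was higher in 4 of 4 muscles, by 0.76, 0.59, 0.62 and 0.17 log2 units, with overlap between muscles (0.57 ± 0.12, edgeR adjusted p = 0.000613; 0.48 and adjusted p = 0.093 without muscle 1). Of the other 14 tested genes of elastic fibres and vessel wall matrix none was called, and the list's median was 0.16. Mfap5, a microfibril protein, had 0.26 ± 0.10 and Mgp, matrix Gla protein of the arterial wall, 0.21 ± 0.10.

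No arterial endothelial marker was called, so the label of artery is not shown by these genes. Of 13 tested, 10 had a positive difference, 1 had an unadjusted p under 0.05 and DESeq2 called 0; the median was 0.11. Sox17, an arterial transcription factor, had 0.27 ± 0.17, Sema3g 0.15 ± 0.16, and the connexin Gja4 0.23 ± 0.38, while Gja5, Bmx, Gkn3 and Unc5b were too low to be tested. Of 5 venous genes tested none was called by edgeR or DESeq2, 2 had an unadjusted p under 0.05 and all 5 were positive; Vwf, which endothelial cells store for clotting, had 0.48 ± 0.19. The sections are therefore called rich in smooth muscle below.

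No capillary or pericyte gene was called. Of 16 endothelial genes shared by capillaries and other vessels, none was called by edgeR or DESeq2 and 1 had an unadjusted p under 0.05, with a median of 0.08. Of these 16, 13 had a positive difference, and the list's summed level was higher in 4 of 4 muscles. Of 11 pericyte genes none was called by either, 8 had a positive difference, 1 had an unadjusted p under 0.05, and the median was 0.06. Rgs5, a regulator of G-protein signalling in pericytes and some arterial smooth muscle, differed by 0.06 ± 0.06 (edgeR adjusted p = 0.90), with 151 ± 11.9 CPM in the high and 137 ± 17.8 in the other sections (SD, n = 4 muscles).

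Genes of nerve were among those that were higher. Of 5 Schwann cell and myelin genes reported and tested, 3 were higher (background 0.496%) and all 5 positive, with a median of 0.77. Their list's summed level ran from 82.8 to 94.1 CPM in the high and from 52.05 to 59.1 in the other sections. Mbp, a myelin protein of the inner membrane face, had 20.3, 15.8, 18 and 9.77 against 8.02, 7.35, 5.93 and 6.78 CPM. Muscle 4 had the smallest difference, and the groups did not overlap (1.14 ± 0.18, edgeR adjusted p = 1.56e-06).

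The other 2 called genes of the list had smaller differences. Sox10, the transcription factor of Schwann cells, had 11.2, 7.23, 19 and 27.6 against 4.09, 5.22, 10.7 and 16 CPM, overlapping because muscles 3 and 4 were higher on both sides (0.77 ± 0.17, adjusted p = 0.00223; adjusted p = 0.088 without muscle 3). Pmp22, a myelin gene that other cells also make, had 0.52 ± 0.12 (adjusted p = 0.006; adjusted p = 0.37 without muscle 3). Prx, the periaxin of myelinating Schwann cells, had 1.04 ± 0.34 and was not called (adjusted p = 0.149), nor was Cnp with 0.06 ± 0.17. Of 2 perineurium genes tested, Itgb4, an integrin subunit of the sheath around nerve fascicles, had 9.63, 9.85, 6.11 and 9.77 against 2.90, 4.06, 3.85 and 4.71 CPM, with no overlap (1.06 ± 0.24, edgeR adjusted p = 0.00506). It was 0.87 without muscle 1 (adjusted p = 0.16) and 0.90 without the peak sections (adjusted p = 0.062). Sfrp5, a secreted inhibitor of Wnt signalling, had 11.2, 9.85, 15.6 and 29.3 against 2.73, 4.26, 7.56 and 13.9 CPM, a difference of 1.11 ± 0.18 with the same direction in 4 of 4 muscles (adjusted p = 1.63e-06). It was 0.52 against nearby sections (adjusted p = 0.47) and 0.47 with position matched in zones (adjusted p = 0.79), 2 comparisons described further on.

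The gene with the largest rise among those the naming rule took was Ccl21a, a chemokine that lymphatic endothelium makes to guide dendritic cells. It had 31.1, 35.5, 28.5 and 18.2 CPM in the high and 7.85, 14.5, 8.60 and 7.34 in the other sections. The lowest high sum was above the highest other sum, and 1.51 ± 0.15 was the difference (edgeR adjusted p = 8.14e-17). The other 3 lymphatic genes tested were not called: Reln, a secreted protein of collecting lymphatics, had 0.72 ± 0.23, Lyve1, a hyaluronan receptor of lymphatic capillaries, 0.52 ± 0.23, and Flt4, the receptor of lymphatic growth factors, 0.52 ± 0.38. Prox1, Mmrn1 and Pdpn were too low to be tested. Ccl21a has near-identical copies in the mouse genome, and its count can depend on how reads were divided among them.

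All 5 erythrocyte genes tested were higher (background 0.496%). Hba-a1, an alpha globin, had 4486, 4207, 2871 and 5975 CPM in the high and 2599, 2877, 1883 and 3116 in the other sections. The direction was the same in 4 of 4 muscles and the groups overlapped through muscle 3 (0.65 ± 0.05, edgeR adjusted p = 3.22e-22). Hba-a2, Hbb-bs and Hbb-bt had 0.68, 0.64 and 0.65. The alpha and the beta globin pairs are near-identical copies, so the division between the members of a pair is uncertain. Hba-a2 had 3036, 3027, 55.8 and 91.8 CPM in the high and 1815, 1953, 37.3 and 38.8 in the other sections. Its level was thus far lower in muscles 3 and 4, which carried the other barcode set, and the cause was not tested. Alas2, the first enzyme of haem synthesis in red cells, had 0.67 ± 0.17 (edgeR adjusted p = 0.0183) but -0.12 in muscle 1, and lost the call without muscle 2, 3 or 4 (adjusted p = 0.073, 0.13 and 0.58). The summed erythrocyte list ran from 3921 to 9819 CPM in the high and from 2556 to 6368 in the other sections.

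Connective tissue and immune lists showed at most 1 call. None of 10 fibrillar collagen genes (median -0.04), 13 basement membrane genes (0.10), 11 genes of fibro-adipogenic progenitors (0.10) or 10 macrophage genes (-0.00) was called by edgeR or DESeq2; 1, 5, 1 and 1 of them had an unadjusted p under 0.05. Neither tool called any of 5 lymphocyte and dendritic cell genes or 3 satellite cell genes, of which 0 and 1 had an unadjusted p under 0.05. Col1a1, a chain of type I collagen, differed by -0.85, 0.09, 0.34 and 0.03 in muscles 1 to 4, and was called higher against nearby sections alone (0.37, edgeR adjusted p = 0.00022). Tpsb2, a mast cell tryptase, was higher (0.47 ± 0.13, edgeR adjusted p = 0.0475), 1 of 4 mast cell genes tested (background 0.496%). It was not called without muscle 1, 2 or 3 (edgeR adjusted p = 0.092, 0.15 and 0.73). C3, the central complement component, had 20.9, 21.7, 24.1 and 19.1 against 13.8, 15.3, 13.2 and 13.2 CPM, without overlap (0.57 ± 0.14, adjusted p = 0.0154). It was not called without muscle 1 (adjusted p = 0.083) or without muscle 3 (adjusted p = 0.48). Against nearby sections C3 had 0.43 (edgeR adjusted p = 0.54) and with position matched in zones 0.32 (0.88). DESeq2 did not call it (adjusted p = 0.9996).

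Among adipocyte genes, Nnat, neuronatin, was called higher on the strength of 1 muscle. It had 4.81, 34.9, 0 and 0 CPM in the high and 8.87, 7.74, 0.148 and 0.188 in the other sections, and was higher only in muscle 2 (1.01 ± 0.28, edgeR adjusted p = 0.0442; adjusted p = 0.12 without muscle 3 and 0.061 without the peak sections). It was the 1 called of 6 adipocyte genes tested. Adipoq, the hormone adiponectin, had 0.87 ± 0.32 and was not called.

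Most muscle fibre genes differed by little in size. Actc1, the cardiac alpha actin that immature fibres and some smooth muscle also make, had 1788, 545, 425 and 438 CPM in the high and 948, 425, 238 and 237 in the other sections. Muscle 1 was far above the rest on both sides, and each muscle had the same direction (0.69 ± 0.05, edgeR adjusted p = 2.51e-22). Against nearby sections Actc1 had 0.34 and was still called (edgeR adjusted p = 9.4e-08). With position matched in zones it had 0.21 and was not called (adjusted p = 0.075). The other 4 tested genes of spindle and immature fibres were not called, and the list's median was -0.35. Chrna1, the alpha subunit of the acetylcholine receptor at the nerve ending, had 5.35, 5.91, 7.13 and 5.33 against 3.41, 2.71, 1.48 and 2.45 CPM, without overlap (1.23 ± 0.29, adjusted p = 0.00887; 0.88 and adjusted p = 0.59 without muscle 3). With position matched in zones Chrna1 had 0.34 (edgeR adjusted p = 0.97), and DESeq2 did not call it (adjusted p = 0.9996). Chrna1 and Prkar1a, a regulatory subunit of protein kinase A (0.22 ± 0.06, edgeR adjusted p = 0.0425), were the 2 called of 9 neuromuscular junction genes tested (background 0.496%). Prkar1a lost the call without muscle 1, 3 or 4 (adjusted p = 0.072, 0.79 and 0.065) and without the peak sections (adjusted p = 0.072).

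Of 13 fast fibre genes, 2 had a positive difference and 10 an unadjusted p under 0.05, and 4 were called lower (background 0.379%). The 4 were Atp2a1, the calcium pump of fast fibres (-0.39 ± 0.06), the calcium buffer Casq1 (-0.26), the myosin-binding protein Mybpc2 (-0.20) and the Z-disc protein Actn3 (-0.18). Nearly all molecular tags of Atp2a1 were used up in some sections, so its difference is uncertain. Without muscle 3 the adjusted p of Casq1, Mybpc2 and Actn3 was 0.12, 0.41 and 0.55, and without muscle 4 it was 0.080, 0.088 and 0.17; without muscle 2 Mybpc2 and Actn3 had 0.23 and 0.19. Of 14 genes of fatty acid uptake and oxidation, 13 had a positive difference and 10 an unadjusted p under 0.05. Called higher were 5 (background 0.496%), all by small amounts: Lpl, the lipase on the capillary wall (0.30 ± 0.05), Acsl1 (0.29), Acadl (0.23), Hadha (0.20) and the transporter Cd36 (0.20). Lpl alone of these stayed called without each muscle in turn; without muscle 3 the others had adjusted p of 0.058, 0.24, 0.63 and 0.64, and without the peak sections Hadha and Cd36 had 0.086 and 0.057. In slow fibres Tpm3, a tropomyosin that non-muscle cells share, was higher (0.42 ± 0.10, edgeR adjusted p = 0.0145; adjusted p = 0.45 without muscle 1 and 0.17 without muscle 4), 1 of 9 tested. Sdhb, a subunit of respiratory complex II, was the 1 called of 16 genes of oxidative phosphorylation (0.20 ± 0.05, edgeR adjusted p = 0.0441, and 0.48 without muscle 3). Of these 16, 15 had a positive difference, against 48.5% of all genes tested, and 8 an unadjusted p under 0.05. Their median was 0.10, and 0.03 against nearby sections. Atf3, a stress-induced factor, was the 1 called of 11 immediate early genes (0.98 ± 0.27, edgeR adjusted p = 0.0441). Its adjusted p was 0.20 without muscle 3 and 0.080 without the peak sections. None of 12 glycolysis genes was called by edgeR or DESeq2, and 4 had an unadjusted p under 0.05.

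Tendon genes had the 2 largest falls among all genes called, Chad and Fmod. Of 6 tested, 4 were lower and none was positive (background 0.379%), with a median of -1.15. Chad, a cartilage and tendon matrix protein, had 6.42, 3.28, 4.41 and 6.66 CPM in the high and 37.1, 10.6, 12.6 and 12 in the other sections. The groups did not overlap (-1.78 ± 0.20, edgeR adjusted p = 1.1e-12). Prg4, the lubricant of gliding surfaces, had 42.9, 53.3, 20.7 and 16.4 against 126, 74.1, 33.4 and 31.6 CPM (-1.03 ± 0.10, adjusted p = 7.65e-16), lower in 4 of 4 muscles. Fmod, fibromodulin, had -1.71 ± 0.21 and Tnmd, tenomodulin, -1.27 ± 0.35; Tnmd was not called when any 1 muscle or the peak sections were left out (adjusted p from 0.086 to 0.29). In all 4 muscles the section with the highest summed tendon level was the last kept one. In the last zone 1 of the 37 kept sections was high. That section was the last kept one of muscle 2, and so the richest of its muscle in tendon transcripts. Of 8 myotendinous junction genes, Tigd4 (-1.14 ± 0.22) and the stretch-responsive Ankrd1, which binds titin (-0.57 ± 0.15), were lower. Neither was called without muscle 3 (adjusted p = 0.19 and 0.87), nor Ankrd1 without muscle 2 (adjusted p = 0.27).

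**Figure D3:**
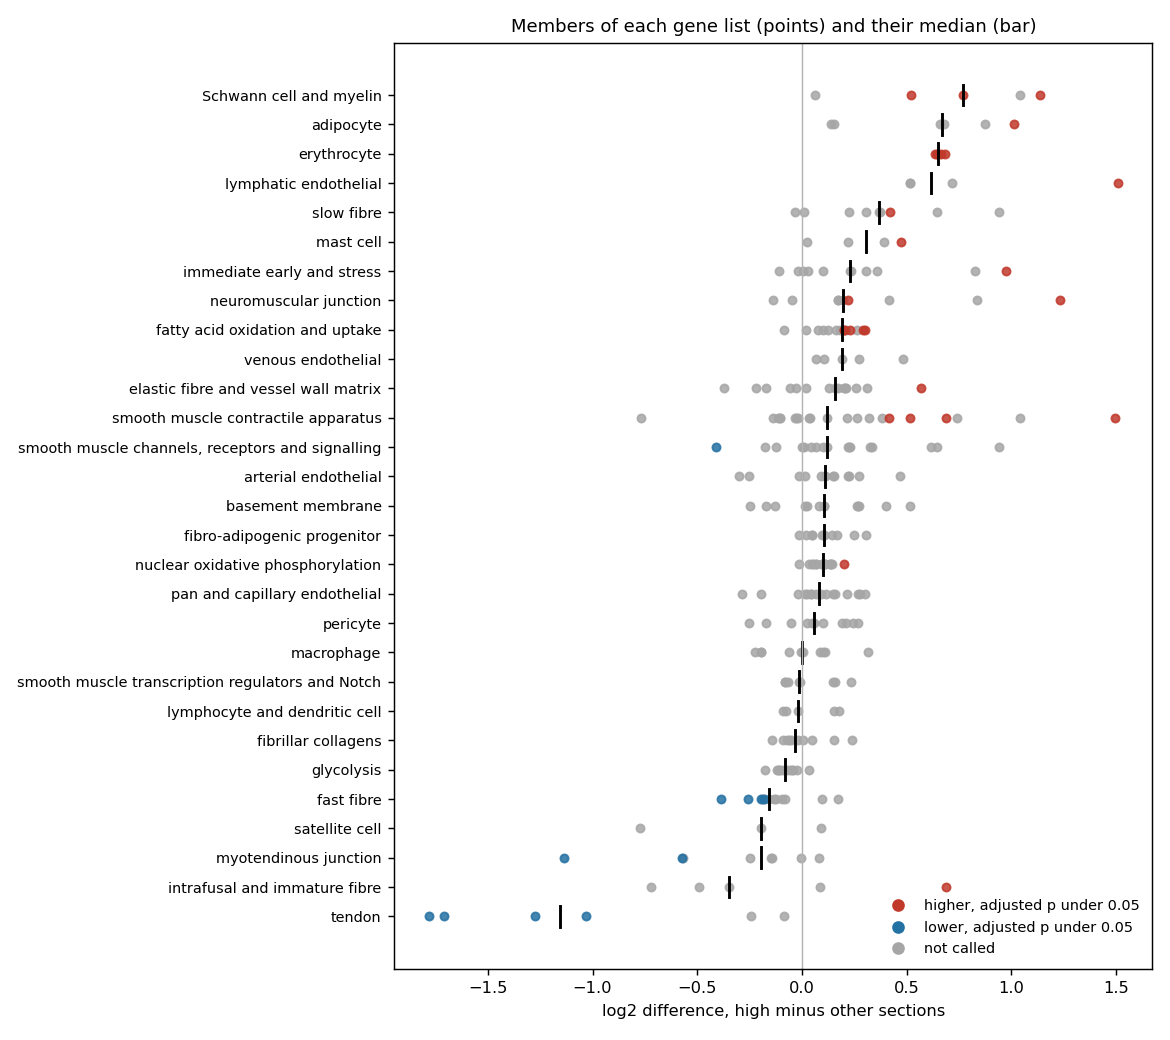
Log2 difference, high minus other sections, of each tested member (points) of the gene lists with at least 3 members tested, with the list median as a black bar; red and blue points passed edgeR's adjusted p under 0.05. The Schwann cell and erythrocyte lists lie to the right (medians 0.77 and 0.65) and the tendon list to the left (-1.15). The medians of the smooth muscle contractile, arterial endothelial and pericyte lists lie near 0 (0.12, 0.11 and 0.06).

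The rest of the genes taken by the naming rule were Olfr1033, Ndrg1 and 8 that were lower. Olfr1033, named as an olfactory receptor, had 35.3, 23.7, 15.96 and 12.9 against 11.9, 13.4, 7.71 and 7.91 CPM (1.03 ± 0.16, edgeR adjusted p = 3.22e-07), higher in 4 of 4 muscles. Ndrg1, a stress-response protein whose loss causes a demyelinating neuropathy, had 0.58 ± 0.13 (adjusted p = 0.00506; adjusted p = 0.22 without muscle 1). Mss51, a mitochondrial protein enriched in muscle, had -0.60 ± 0.06, the RhoA activator Net1 -0.58 ± 0.10 (adjusted p = 0.064 without muscle 3) and the membrane protein Tmem100 -0.49 ± 0.08. Against nearby sections Mss51 had -0.16 (adjusted p = 0.78), Net1 -0.08 (adjusted p = 0.9994) and Tmem100 -0.22 (adjusted p = 0.80), and none was called. The ion pump family member Atp13a5 (-0.68), the transcription factor Etv6 (-0.64), the small GTPase Rras2 (-0.64) and Tceal5 and Tceal7 (-0.56 and -0.47) each lost the call without at least 1 muscle, with adjusted p up to 0.74, 0.37, 0.61, 0.15 and 0.24. The rule was met by 38 genes that were higher and 29 that were lower.

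Because high sections lay mostly in the first part of the muscle, the comparison was repeated against nearby sections. The same 43 sections were set against the 67 others whose barcode number was within 3 of a high section, a choice made after seeing the data. Then 17 genes were higher and 5 lower of 9826 tested (0.173% and 0.0509%), and 19 of the 97 first called were called again. Against these neighbours Myl9 had 0.62 (edgeR adjusted p = 0.013), Mylk 0.40 (adjusted p = 0.042), Flna 0.40 (0.0073), Eln 0.56 (0.013) and Dstn 0.54 (0.0013). Mbp had 0.88 (adjusted p = 0.005) and Ccl21a 0.83 (3.4e-05), and the 4 globins 0.34 to 0.41. Cnn1 was too low there to be tested. No tendon, myotendinous junction, neuromuscular junction or fatty acid gene was called: Chad had -0.61, Prg4 -0.28 and Lpl 0.11. The collagen Col1a1, not called against all other sections (-0.06), was among those higher here. Of the 5 Schwann cell genes 4 could be tested, with a median of 0.32, and Sox10, Pmp22 and Itgb4 were not called (adjusted p = 0.93, 0.85 and 0.45).

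**Figure D4:**
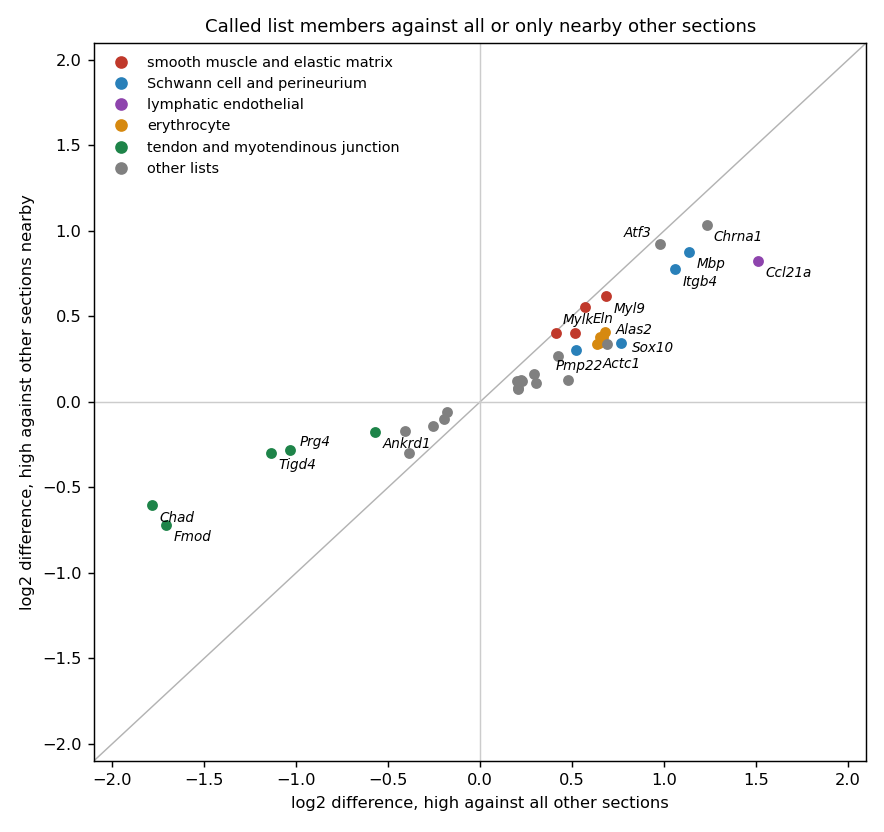
Log2 difference of the called list members against all other sections (horizontal axis) and against only the other sections within 3 barcode numbers of a high section (vertical axis), coloured by list; the grey diagonal marks equal values. Smooth muscle and elastic fibre genes lie near the diagonal (Myl9 0.69 and 0.62, Eln 0.57 and 0.56), and tendon genes lie far from it (Chad -1.78 and -0.61).

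A stricter version took the highest 25% within each of 5 zones of equal length, so that position was matched to within a zone. Of its 42 high sections, 25 (59.5%) were among the 43 first chosen, so the choice of sections changed as well. Calls lost through position and through the changed choice cannot be told apart. It called 5 genes higher and 1 lower of 10881 (0.0460% and 0.00919%). The 6 were Mylk (0.50, edgeR adjusted p = 0.0014), Ccl21a (0.78, adjusted p = 0.0045), Hba-a2 (0.35, adjusted p = 1.4e-06), Nnat, the clone-named Gm48099 and, lower, the saturated Atp2a1. The other 3 globins were not called. Hba-a1, the near-identical copy of Hba-a2, had 0.16 (edgeR adjusted p = 0.50), Hbb-bs 0.17 (0.50) and Hbb-bt 0.12 (0.88). Alas2 was not called either, with 0.16 (0.97). Cnn1 had 1.29 (adjusted p = 0.075), Eln 0.41 (0.51), Mbp 0.39 (0.89) and Myl9 0.34 (0.83) in this version.

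The 4 contractile genes called higher were followed section by section. They were called in sections that include the peaks, so a high level there is partly fixed by that choice and is a description. The sum of Myl9, Mylk, Cnn1 and Flna at the peak was 314, 272, 238 and 252 CPM, against a median of 118, 108, 115 and 107 over the sections of the muscle. The peak section ranked first of all sections in muscles 1, 3 and 4 and second in muscle 2, where the next section was higher. The whole contractile list, which holds fibre genes such as Tpm2 and Des, was highest 1, 8, 8 and 9 barcode numbers after the peak, and the peak section ranked 5, 8, 6 and 22 for it. The Schwann cell and myelin list was highest 4, 7, 1 and 2 barcode numbers after the peak in muscles 1 to 4, and the peak section ranked 12, 13, 3 and 2 for it. In muscle 4 the peak section had 139 CPM, on 21 transcripts, and the highest section 144, which this depth cannot tell apart. Ccl21a was highest 2 and 1 after, 1 before and 9 after the peak, on few transcripts (4 to 8 at the peak). Haemoglobin was highest 2 and 3 after, 2 before and 2 after the peak.

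**Figure D5:**
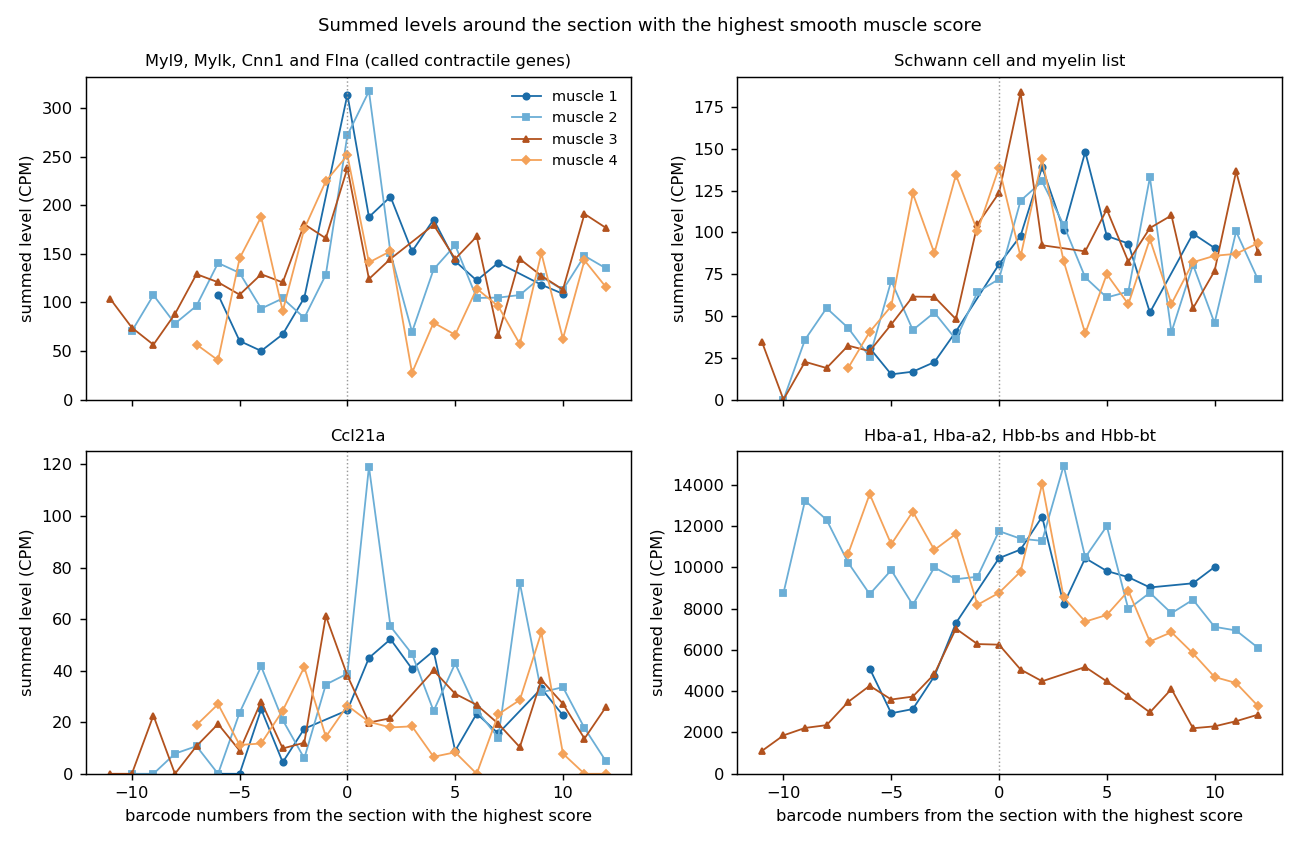
Summed level CPM (vertical axes, each from 0) of 4 groups of genes in the kept sections within 12 barcode numbers of the section with the highest smooth muscle score (dotted line at 0), 1 line per muscle. Myl9, Mylk, Cnn1 and Flna, chosen because they were called higher in the high sections, reach 238 to 318 CPM at or 1 section after the peak; the myelin list and haemoglobin have their highest level 1 to 7 barcode numbers away, though in muscle 4 the myelin list is nearly as high at the peak (139 against 144 CPM).

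When the 25% of sections richest in each gene group were taken in the same way, 26 of the 43 high sections were also among those richest in Ccl21a and 26 among those of Myl9, Mylk, Cnn1 and Flna (60.5% each). High sections made up 25.1% of those kept. The count was 24 (55.8%) for Schwann cell genes and for haemoglobin alike, 22 (51.2%) for Actc1 and for capillary and other endothelial genes, 21 (48.8%) for Eln, 18 (41.9%) for arterial endothelial genes, for mast cell genes and for the whole contractile list, 16 (37.2%) for Rgs5, 11 (25.6%) for Col1a1, Col1a2 and Col3a1, and 3 (6.98%) for tendon genes. Sections share libraries, depth and position. Ccl21a, Eln, Actc1, haemoglobin and the 4 contractile genes were called higher in these same sections. So were members of the Schwann cell and mast cell lists, and members of the tendon list were called lower. All these counts are therefore a description.

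The results were recomputed within each set of section barcodes. Muscles 1 and 2 alone gave 26 higher and 7 lower genes, and muscles 3 and 4 alone 41 and 51. Ccl21a (1.55 and 1.47) and Mbp (1.19 and 1.09) were called in both sets. Mylk had 0.69 (edgeR adjusted p = 0.0013) in muscles 1 and 2 and 0.39 (adjusted p = 0.09) in muscles 3 and 4, Eln 0.70 (0.008) and 0.43 (0.36), and Cnn1 1.33 (0.27) and 1.71 (0.042). A test of the difference between the sets called 2 of 11079 genes (0.0181%), Col1a1 and Lars2, and no smooth muscle, Schwann cell or erythrocyte gene.

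Ccl21a lies on chromosome 4 at 42772860 to 42773993 (GRCm38), Mylk on chromosome 16 at 34745210 to 35002420, Eln on chromosome 5 at 134702593 to 134747323 and Chad on chromosome 11 at 94565047 to 94569127. The use of strand in counting is not given in the sources used here. Ccl21a, Mbp, Mylk, Eln, Actc1, Itgb4, Ndrg1, Chad, Prg4, Etv6, Rras2, Tceal7 and Itpr1 overlap a gene on the opposite strand, so their counts can include its transcripts.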

How the data were processed

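Per the labels' protocols, primers carried 6 bases of molecular identifier (UMI) and 8 of section barcode. The deposited main tables hold 1 estimated count per gene and barcode. All values below the highest of each table equal whole UMI numbers corrected, out of 4096 possible UMIs, for those drawn again. The submitters' processing notes name STAR 2.7.7a and GRCm38; the counter is not given in the sources used here. As a further file, the authors deposited a filtered table of normalized signal, used only to learn which sections they kept. Genes named mt- (37) were left out; UMIs were nearly used up for 13 of them and for 9 other genes, called saturated; entries naming several genes (0.58% to 0.93% of counts) were left out too. Names come from GENCODE M21 (28895 of 28989 identifiers matched).

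Counts were summed per muscle and side, rounded, scaled by TMM, filtered with filterByExpr and tested with edgeR 4.0.16 (quasi-likelihood F-test, muscle as block, 3 residual degrees of freedom, Benjamini-Hochberg adjustment at 0.05 over all genes tested). The sums of a muscle come from the same tissue, which is where the pairing comes from. SE were derived from the F statistic. Section totals not named mt- ran from 28380 to 575524, and counts of few transcripts are imprecise. Levels CPM are not corrected for length. Named genes were called, had 1 sign in all 4 muscles and averaged 10 CPM or more (the 15 largest rises and 10 largest falls, clones and pseudogenes skipped), besides called members of 32 gene lists. Sections, lists and rule were chosen with earlier results of these data known. Alternatives were DESeq2 1.42.0, other scalings, filters, section shares, scores, positions, depths, blocks and muscles. The fit was tested on simulated data.

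Skin markers, listed as a check, were too low to be tested. For 2 genes of the lists the values are not reported here, and list sums and medians leave them out.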

Additional observations from a re-analysis of the deposited data

Results flagged for a closer look

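Among 55 genes with 4 per-muscle differences, 6 had 1 muscle far from the other 3; chance alone marks about 1 in 20 such groups. Sfrp5 differed by 1.87 in muscle 1 and by 0.91 to 1.02 in the others. Nnat differed by 1.997 in muscle 2 and was negative in the other 3. Atf3 differed by -0.88 in muscle 4 and by 0.92 to 1.17 in the others. Lpl differed by 0.15 in muscle 2 and by 0.34 to 0.38 elsewhere, Pmp22 by 0.68 in muscle 3 and 0.41 to 0.45 elsewhere, and Prkar1a by 0.37 in muscle 3 and 0.14 to 0.16 elsewhere.

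The difference between high and other sections itself differed between the barcode sets for 2 genes (edgeR interaction test). For the collagen Col1a1 it was 0.71 log2 units larger in muscles 3 and 4 than in muscles 1 and 2, and muscle 1 stood apart at -0.85. For Lars2, the mitochondrial leucyl-tRNA synthetase, it was -0.87, with 0.75 and 0.37 in muscles 1 and 2 and -0.13 and -0.50 in muscles 3 and 4.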

How the results depend on the processing

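The 55 genes higher and 42 lower became 13 and 10 with DESeq2 (17834 of 28742 genes had no adjusted p), 28 and 8 with the highest eighth of sections, 87 and 79 against the lowest 25%, 13 and 1 with Tagln alone as the score, 5 and 1 within zones, 13 and 11 with sections thinned to equal depth, 31 and 24 with the sums thinned, 26 and 7 in muscles 1 and 2 alone, and 17 and 5 against nearby others (added after seeing the data). With no filter on low counts 25 were higher, and with Myh11 alone 22 were lower. With Tagln alone, 12 of the 53 genes followed kept the call, among them Ccl21a (0.96, edgeR adjusted p = 0.0001), and 41 did not. Among those 41 were Mbp (0.54, adjusted p = 0.59), Myl9 (0.51, 0.13), Eln (0.35, 0.54), Chad (-0.30, 0.93) and Prg4 (-0.19, 0.88). Without the replicate block, that is without pairing the sums of a muscle, edgeR called 0 and 0, with 91 genes at an unadjusted p under 0.05 while DESeq2, run with the block, called the 13 and 10 above. Leaving out 1 muscle gave 22 to 54 higher and 8 to 44 lower; without muscle 3 there were 22 and 8, and without muscle 1 there were 31 higher. The interaction calls fell from 2 to 0 with no filter (661 at an unadjusted p under 0.05). Of 53 genes followed, 18 stayed called without each muscle in turn, among them Mylk, Mbp, Ccl21a, Actc1 and the 4 globins. The sign turned for Atp13a5 (0.015), Cd36 (-0.018) and Prkar1a (-0.034) within zones, Etv6 (0.052) with sections thinned, and Nnat with Acta2 (-0.27) or Myh11 (-0.24) alone; the cause was not tested. The other settings kept both counts within 1.5 times. Sections of few transcripts limit Cnn1, Chrna1 and Itgb4, and a low gene that was not called is not shown to be level.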
